A study of Mus musculus with 12 samples.

Results

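The genes described here encode the proteins of the cytosolic ribosome, as measured in the liver of wild type and Siah2 ko mice of both sexes. A gene was included if its symbol began with Rpl, Rplp or Rps, followed by a number and the usual suffixes of the family, and if it averaged at least 10 CPM (reads of the gene per 1000000 counted reads of its library) over all 12 mice. Of 23420 gene symbols in the count tables, 83 had such a symbol and 75 of these passed the minimum, 44 of the large and 31 of the small subunit. The member nearest to the minimum was Rpl29, with a mean of 28.2 CPM, and the nearest gene outside it was Rpl34, with 3.53 CPM. Rpl30, Rpl3l and Rps27 each had under 0.5 CPM, and Rpl26, Rpl10l and Rpl39l were listed at 0 reads in each of the 12 mice. A count of 0 allows up to 3 reads from counting error alone, or 2.32 CPM in the smallest library and 0.0908 CPM over all 12 libraries together. These low values need not mean low mRNA levels, and whether reads of these genes went uncounted was not tested.

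Ribosomes translate mRNA in the cytosol. The small subunit holds the mRNA and reads its codons, the large subunit joins amino acids into the growing chain, and each is built from ribosomal RNA and many small proteins, most of which are needed in equal copy number. Most mRNAs of these proteins begin with a run of pyrimidines, the 5′ TOP motif, through which the nutrient-sensing kinase mTOR and the RNA-binding protein LARP1 control their translation, and in the liver ribosome production follows feeding and the time of day.

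Liver RNA was counted at Zeitgeber time (ZT) 10 in mice about 20 weeks old on a C57BL/6 background, with 3 mice in each of 4 groups: wild type females (WTF), Siah2 ko females (KOF), wild type males (WTM) and Siah2 ko males (KOM). Siah2 encodes a ubiquitin ligase, and the Siah2 ko and wild type mice came from related lines founded by crossing heterozygotes, so that a difference between lines that is not due to Siah2 cannot be told apart from the genotype. The paper describes a library for each liver, whereas the labels speak of RNA pooled from 3 mice, and the p-values measure the spread between these 12 libraries. QuantSeq reads start near the 3′ end of a transcript, so that a level in CPM does not grow with transcript length.

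The values of the 3 mice of a group are given in the order 1089, 1090 and 1091 for WTF, 1070, 1104 and 1105 for KOF, 1055, 1086 and 1087 for WTM, and 1075, 1076 and 1081 for KOM. The libraries held 1293688 to 4056144 counted reads, and 25 to 10845 reads per member and mouse. The hepatocyte markers Alb (12210.3 to 28663 CPM), Apoa1, Ttr and Serpina1a were high in each mouse. Cps1 and Tat were lowest in WTF 1091, at 74.2 and 37.9 CPM, against 129 to 337 and 165 to 728 CPM in the other mice. The haemoglobin genes and the acinar enzymes Prss2, Cpa1 and Ctrb1 were at 0. Of the other acinar markers, Cela1 was at 10.8 to 57.4 CPM, Cela2a had reads in 6 mice and Pnlip in 1. The acinar zeros therefore do not show that acinar cells were absent. Alas2 of red blood cells was at 8.47 to 154 CPM, so the haemoglobin zeros do not show that these cells were absent. Siah2 was counted at 16.97, 12.3 and 11.5 CPM in WTF, 10.01, 12.5 and 9.63 in KOF, 16.8, 27.1 and 21.4 in WTM and 9.42, 17.4 and 15.03 in KOM. Reads near the 3′ end do not test for a deletion elsewhere in the gene, and edgeR called no difference in Siah2 (adjusted p = 0.641 in females and 0.9999 in males). A library of the wild type females, mouse 1091, stood apart from the others of its group. Within groups, the chi-square per degree of freedom between the counts of a pair of mice, which is 1 for counting error alone, was 6.71 to 21.8 where mouse 1091 was not in the pair. It was 42.0 and 44.95 where mouse 1091 was paired with WTF 1089 and 1090. The calls of each comparison that includes it are given with and without it. Mouse 1091 was singled out from these same data, and fits without it hold only 1089 and 1090 of WTF. In whole liver, fewer cells of a type and less RNA per cell cannot be told apart.

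The start of the transcript is the part of these mRNAs that sets them apart from others, and it is shown for members called between Siah2 ko females and males that have an entry in the promoter table, and for Rpl15. Rpl23a, Rpl8 and Rps4y2 have no entry. RefSeq promoter sequences (GRCm38.p6, the build of all positions given here) were found for 56 of the 75 members. A TOP run was taken as a C within 10 bases of the annotated start, on either side, that is followed by at least 4 further C or T bases. For genes with several annotated starts, a match at any of them was counted. A run was present in 34 of 56 members (60.7%) and in 37.4% of the 7407 tested genes with an entry. With the C required at the annotated start itself, whatever stood before it, 12 of 56 members (21.4%) and 3.23% of the tested genes had a match. The stretches below run from 10 bases before the annotated start to 20 bases from it, with the TOP run in capitals. Rps19 has 3 annotated starts, and the one shown lies inside the gene, which begins at chr7:24884592. The starts shown for Rps12 and Rpl5 also lie inside their genes, which begin at chr10:23787383 (minus strand) and chr5:107900508 (plus strand). The following members with a run include 6 that differed between Siah2 ko females and males, and Rpl15, which had the highest log2 fold change of genotype in females.
Rps19, chr7:24884903-24884932, plus strand: agcggggtgtggagggCTCTCCCacgcggt
Rpl13a, chr7:45128726-45128755, minus strand: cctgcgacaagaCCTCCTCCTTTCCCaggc
Rpl14, chr9:120571507-120571536, plus strand: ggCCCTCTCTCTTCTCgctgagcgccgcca
Rps7, chr12:28635934-28635963, minus strand: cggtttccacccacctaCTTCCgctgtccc
Rps12, chr10:23787190-23787219, minus strand: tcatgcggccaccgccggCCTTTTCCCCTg
Rpl35, chr2:39005112-39005141, minus strand: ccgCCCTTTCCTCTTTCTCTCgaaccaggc
Rpl15, chr14:18270967-18270996, minus strand: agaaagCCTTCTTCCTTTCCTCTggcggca
The next 6 members, also called between Siah2 ko females and males, had no such run within 10 bases of the annotated start. Rps3 and Rps15 encode proteins of the small subunit, and the others encode proteins of the large subunit.
Rps3, chr7:99483690-99483719, minus strand: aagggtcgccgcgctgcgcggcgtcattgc
Rps15, chr10:80292421-80292450, plus strand: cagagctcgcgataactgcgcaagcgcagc
Rpl24, chr16:55966265-55966294, plus strand: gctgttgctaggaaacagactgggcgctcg
Rpl5, chr5:107900518-107900547, plus strand: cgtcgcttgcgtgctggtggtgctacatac
Rpl41, chr10:128549149-128549178, minus strand: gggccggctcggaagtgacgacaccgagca
Rpl9, chr5:65391412-65391441, minus strand: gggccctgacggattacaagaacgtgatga
A match, or its absence, describes these letters at the annotated start, which need not be the start used in liver. The members with and without a run had close median log2 fold changes in females, at -0.28 for 34 members and -0.21 for 22. Between Siah2 ko females and males, the calls among members with a run were 1 higher and 5 lower in females, and among members without a run 4 higher and 2 lower. Of all genes 5.69% were called higher and 5.78% lower, and the members with and without a run were not tested against each other.

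Levels within the family spanned a wide range. The median member had a mean of 268 CPM, 65 of 75 members were above 100 CPM and 17 were above 500 CPM. Rpl13a, a large subunit protein, had the highest mean level at 1961 CPM, and was 69.3 times above the lowest. It was followed by Rps14, which lines the channel where mRNA leaves the small subunit (1439.9 CPM), Rpl23 (1258 CPM), the stalk protein gene Rplp1 (1053 CPM) and Rps12 (887 CPM). These 5 genes held 23.7% of the reads of the family. At the other end stood Rpl29 (28.3 CPM after scaling), Rpl7l1 (29.3 CPM), Rps4y2 (29.3 CPM), Rpl10a (33.5 CPM) and Rpl19 (57.7 CPM), which together held 0.64%. Genes whose proteins are mostly needed in equal number were thus counted at very unequal levels. Ribosomal protein genes have many processed pseudogenes of near-identical sequence, and no source at hand gives the counting rule for reads matching several copies, so the levels of single members are uncertain. The members lie on 19 chromosomes, 4 of them on X. Rps4y2 is an older symbol of Rps4l, a transcribed pseudogene in RefSeq, at chr6:148354656-148355596.

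Summed over its members, the family was measured at 26073, 25769 and 39725 CPM in WTF 1089, 1090 and 1091, with a mean of 30522 ± 7971 CPM (SD, n = 3). The sums were 28182, 27043 and 21757 CPM in KOF, with a mean of 25661 ± 3428. In males they were 30469, 26209 and 26591 CPM in WTM (27756 ± 2357) and 26624, 27677 and 27894 CPM in KOM (27398 ± 679). The ranges of the 4 groups overlapped, and WTF 1091 lay above all other mice. Without it the mean of WTF was 25921 CPM, within the range of KOF. Mouse 1091 had the highest level of the 12 mice for 34 members, and KOF 1105 the lowest for 32.

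The ratio of small to large subunit reads separated the same mice in another way. It was 0.844 and 0.841 in WTF 1089 and 1090, and 0.735 in WTF 1091. In the other 9 mice it lay between 0.686 and 0.758. By this measure WTF 1091 was within the range of the other groups, and WTF 1089 and 1090 stood above it.

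**Figure D1:**
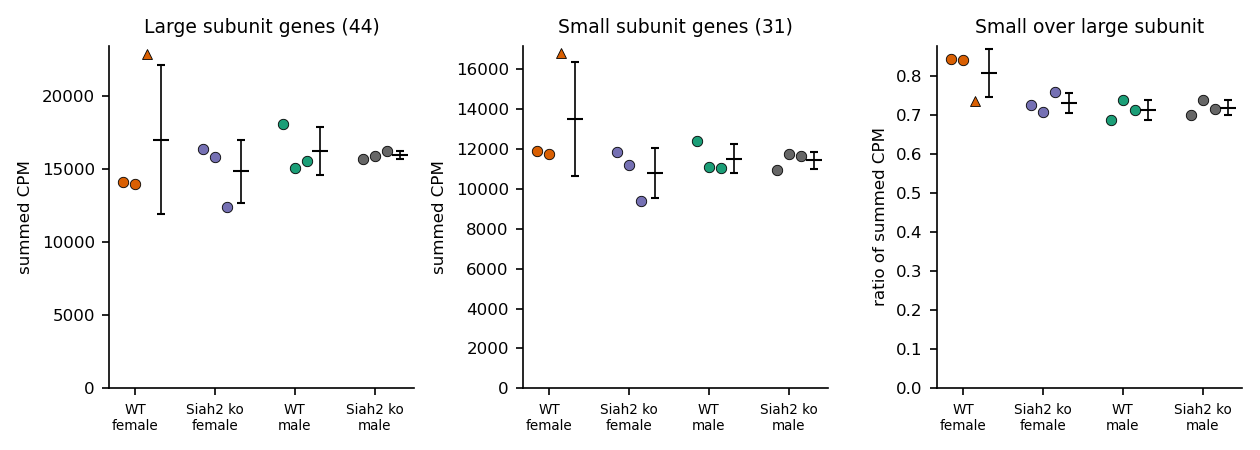
Summed CPM of the 44 large subunit genes and the 31 small subunit genes, and their ratio, in each of 12 livers. Points are mice, the triangle is WTF 1091, and bars are the mean ± SD of 3 mice. WTF 1091 lies above all others in both sums, and WTF 1089 and 1090 lie above all others in the ratio.

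Members kept their rank from mouse to mouse. Spearman's rho between mice over the 75 members was 0.862 to 0.994 for all 66 pairs, as a description across genes that share libraries. The lowest value was that of WTF 1089 with KOF 1105, and pairs with WTF 1091 ran from 0.883 to 0.927. WTF 1091 was at 0.889 and 0.890 with WTF 1089 and 1090, and at 0.926 with KOF 1070. Within groups, the median SD of log2 CPM over the members was 0.35 in WTF, 0.20 in KOF, 0.15 in WTM and 0.13 in KOM. The same median over all 6705 genes with at least 10 CPM was 0.37, 0.23, 0.25 and 0.22. Between WTF 1089 and 1090 alone it was 0.06 for the members and 0.17 for all genes. The steadiest members within groups were Rps3a1 (SD 0.08), Rpl7a (0.10) and Rpl11 (0.11). Rpl3 (0.52), Rpl41 (0.51) and Rpl28 (0.50) varied most, and for each of these WTF 1091 was the highest mouse.

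**Figure D2:**
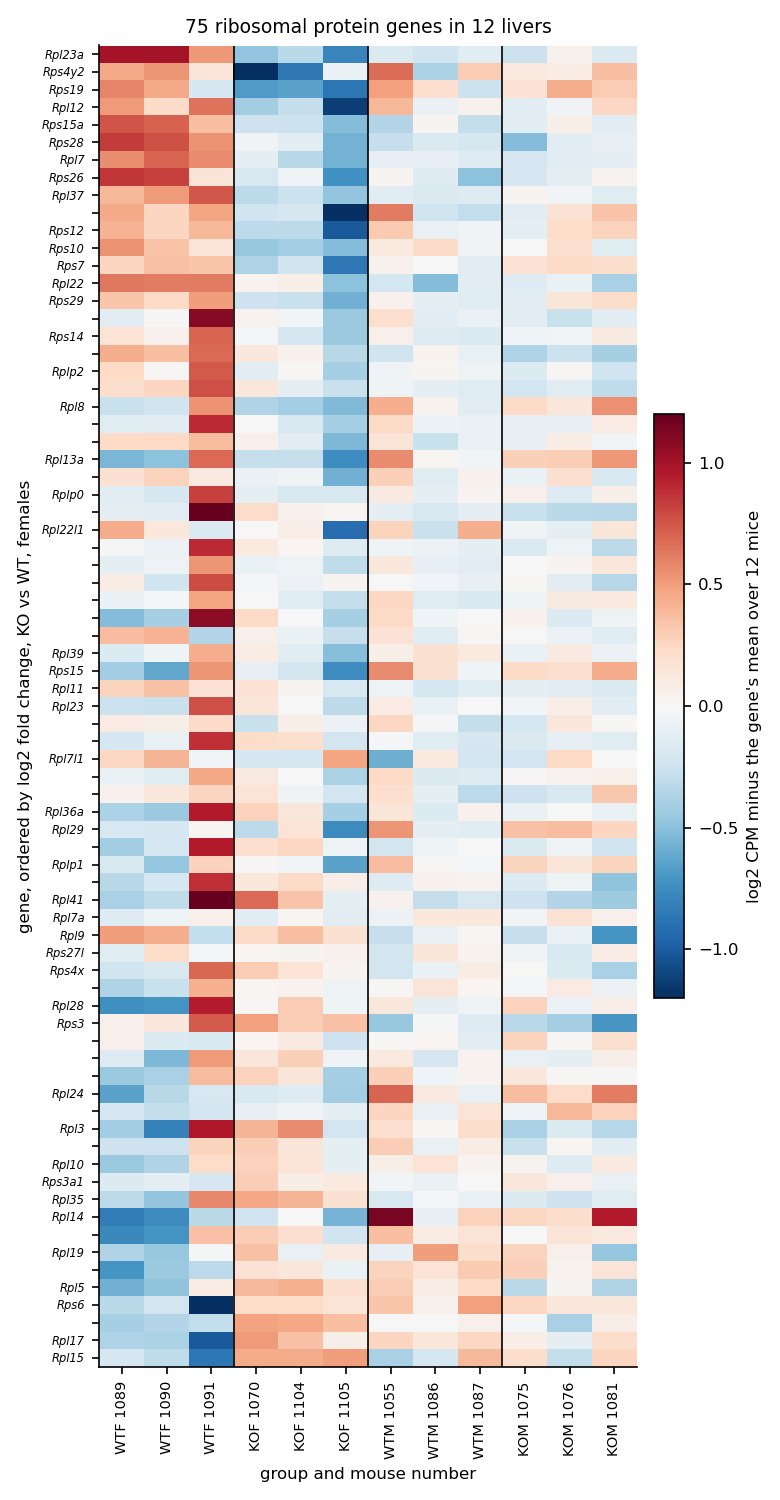
Level of each of the 75 members (rows) in each of the 12 mice (columns), as log2 CPM minus the mean of the gene. Names are drawn for a selection of rows, and colours past the ends of the bar are drawn in its end colours. The rows run from the most negative to the most positive log2 fold change between Siah2 ko and wild type females, and WTF 1091 differs from WTF 1089 and 1090 in many of the middle rows.

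The study asked what deletion of SIAH2 does in the mouse, and the genotypes are compared here within each sex. In females, edgeR called none of the 75 members after adjustment, and none of 9465 genes (0.0% called), while 22 members had an unadjusted p under 0.05, 6 higher and 16 lower in KOF. Such p-values were found for 15.6% of all genes tested. DESeq2 called 12 members, 3 higher and 9 lower, and 3.7% of the genes it adjusted. The 3 mice of KOF lay above all 3 WTF for 8 members and below them for 21, and this was so for 11.4% and 11.9% of all genes. The median log2 fold change of the members was -0.23, and of all genes -0.03.

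Rpl23a (chr11:78180935-78183584), whose protein lies at the exit of the peptide tunnel and binds the signal recognition particle, had the most negative log2 fold change. It was at 409.7, 411 and 294 CPM in WTF and 147, 163 and 118 in KOF. The lowest WTF mouse was above the highest KOF mouse, and the log2 fold change was -1.39 ± 0.25 (SE), with an edgeR adjusted p = 0.0793 and a DESeq2 adjusted p = 0.000122. Rps4y2, the pseudogene named above, was at 37.5, 39.6 and 30.6 CPM in WTF and 10.6, 15.1 and 25.9 in KOF (-1.12 ± 0.34 (SE), edgeR adjusted p = 0.16). Rps19 (chr7:24884592-24889811), which is needed to mature the small subunit and is mutated in Diamond-Blackfan anaemia, was at 278, 254 and 161 CPM in WTF and 116, 119 and 102 in KOF. These groups did not overlap, and the log2 fold change was -1.06 ± 0.26 (SE) (edgeR adjusted p = 0.115, DESeq2 adjusted p = 0.0128).

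In the other direction, Rpl15 (chr14:18267823-18270986), a core protein of the large subunit, was at 51.6, 48.01 and 32.5 CPM in WTF and 80.9, 80.6 and 83.7 in KOF. The log2 fold change was 0.88 ± 0.24 (SE) (edgeR adjusted p = 0.133). Rpl17, at the tunnel exit, was at 433, 429 and 278 CPM in WTF and 793, 713 and 586 in KOF (0.86 ± 0.26 (SE), edgeR adjusted p = 0.16). In both genes each KOF mouse was above each WTF mouse, and DESeq2 called both. The signs thus differed within the family, and within the same part of the ribosome.

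By role, edgeR called no member of any group in females, and the log2 fold changes were mixed. Of the 31 small subunit genes, 22 were below 0 (median -0.36), and of the 44 large subunit genes 30 were (median -0.19). The 3 genes of the mRNA exit, Rps26, Rps28 and Rps14, had log2 fold changes of -0.94, -0.96 and -0.56, and each was lower in all 3 KOF mice than in all 3 WTF mice. Those of the beak and mRNA entry were near 0 for Rps2, Rps3 and Rps27a (0.05, 0.03 and -0.08) and further below 0 for Rps10 and Rps12 (-0.83 and -0.88), with DESeq2 calls for the last pair only. At the tunnel exit, values ran from -1.39 for Rpl23a to 0.86 for Rpl17, with Rpl35 at 0.34 and Rpl4 at -0.43. Among the 16 measured genes of Diamond-Blackfan anaemia, 12 were below 0 and 4 above. Without WTF 1091, edgeR called 2 higher and 9 lower of the small subunit, 7 higher and 5 lower of the large subunit, and 4 higher and 6 lower of the Diamond-Blackfan genes, against 9.64% of all genes. Among markers of other cells, the summed lymphocyte markers (13.5 to 14.8 CPM in WTF and 6.997 to 11.4 in KOF), Alas2 of red blood cells (20.1 to 25.2 and 8.47 to 19.3 CPM) and the fat markers (47.8 to 54.9 and 57.8 to 110 CPM, nearly all Fabp4, with Plin1 at 0) did not overlap between the groups. The part of these cells in the levels of the members was not tested.

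These results turned on WTF 1091. Without this mouse, edgeR called 23 members in females, 9 higher and 14 lower in KOF, against 9.64% of all genes tested. This fit rests on WTF 1089 and 1090, which lay close together. Their median SD of log2 CPM over the members was 0.06, against 0.13 to 0.20 in the other groups. The median log2 fold change of the members moved to 0.02. Rpl23a was then at -1.52 (edgeR adjusted p = 0.00215), Rps19 at -1.24 (edgeR adjusted p = 0.00328) and Rps28 at -1.02 (edgeR adjusted p = 0.011). Members whose level in WTF 1091 was far from that in WTF 1089 and 1090 moved most. Rpl3, which sits at the peptidyl transferase centre and is named here after its values were seen, was at 288, 219 and 750.4 CPM in WTF and 512, 572 and 327 in KOF, and its log2 fold change was 0.15 with and 0.89 without this mouse. Leaving out any of the other 5 female mice gave 0 calls among the members.

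**Figure D3:**
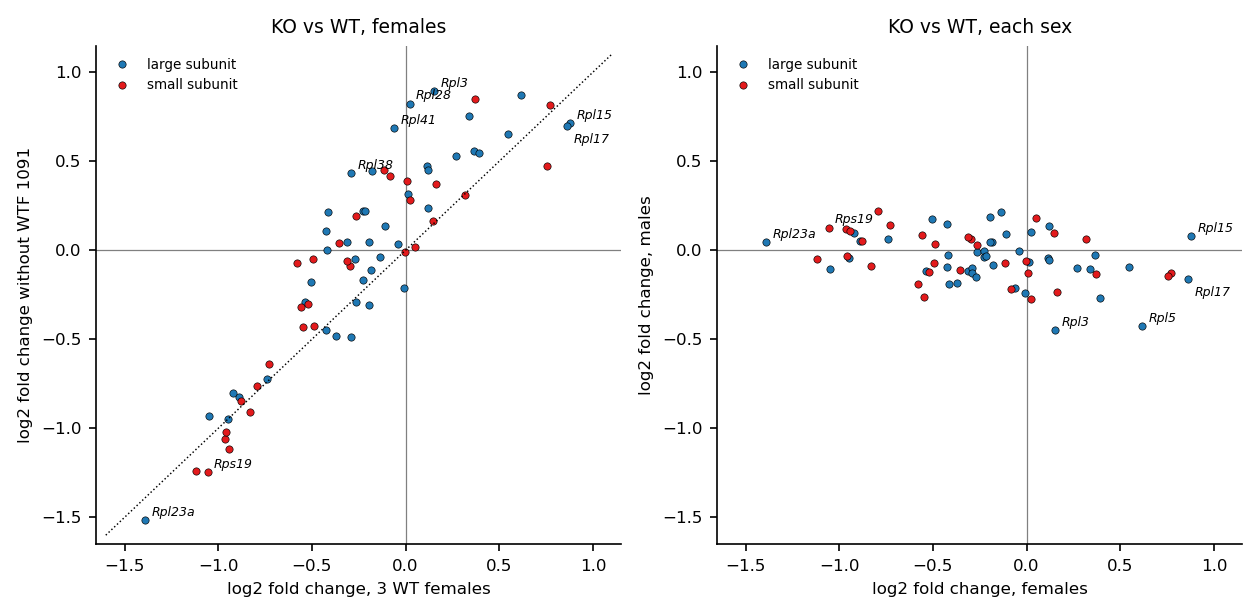
Log2 fold change of each of the 75 members between Siah2 ko and wild type. On the left, the values in females with all 3 wild type mice are set against those without WTF 1091 (dotted line, equal values), and most members lie above the line. On the right, the values in females are set against those in males, which run from -0.45 to 0.22.

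In males no member was called between genotypes. EdgeR called none of the 75, and none of 8823 genes (0.0% called), and DESeq2 called none of the members and 0.037% of the genes it adjusted. An unadjusted p under 0.05 was found for 2 members, Rpl3 and Rpl5, and for 4.05% of all genes. Rpl3 was at 441, 389.6 and 445 CPM in WTM and 295, 342 and 303 in KOM (-0.45 ± 0.14 (SE), edgeR adjusted p = 0.9999). Rpl5, which carries 5S RNA into the ribosome together with Rpl11, was at 602, 521 and 579 CPM in WTM and 391, 503 and 381 in KOM (-0.43 ± 0.15 (SE), edgeR adjusted p = 0.9999). The lowest values after these were Rps3 at -0.28, and the highest were Rps7 at 0.22, Rpl29 at 0.22 and Rpl7l1 at 0.19. The median was -0.04, and -0.01 over all genes. KOM lay above WTM for 1 member and below for 4, compared with 4.45% and 4.42% of all genes, or 8.87% in either direction. Of the marker sums, only that of bile duct cells, with 47.4 to 56.3 CPM in WTM and 27.8 to 36.2 in KOM, did not overlap, and its part in these values was not tested.

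With the sexes combined, edgeR called none of the 75 members and 0.0111% of 9020 genes, and DESeq2 called no member and 0.0056% of the genes it adjusted. An unadjusted p under 0.05 was found for 1 member higher and 9 lower in Siah2 ko, and for 5.65% of all genes. The members with the most negative values were Rpl23a (-0.76 ± 0.24 (SE)), Rps28 (-0.58 ± 0.22 (SE)) and Rpl12 (-0.57 ± 0.21 (SE)), each with an edgeR adjusted p = 0.866. Rpl15 (0.49 ± 0.19 (SE)) and Rpl17 (0.31 ± 0.20 (SE)) were among the 3 most positive. No member had its 6 Siah2 ko mice all above or all below the 6 wild type mice, as 0.2% of all genes had (0.155% above and 0.0443% below). Without WTF 1091 edgeR again called no member, and none of 9156 genes.

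Whether the genotype acted differently in females and males was tested as an interaction of genotype and sex, in which a negative value stands for a lower log2 fold change in females. EdgeR called 1 member, Rpl23a, and 0.255% of 9806 genes (0.0918% with a negative value). An unadjusted p under 0.05 was found for 22 members and for 14.1% of all genes. In males Rpl23a was at 181, 174 and 188 CPM in WTM and 172, 212 and 182 in KOM, above all KOF and below all WTF. The difference between the sexes was -1.43 ± 0.28 (SE) (edgeR adjusted p = 0.0474). It was -1.56 without WTF 1091 (edgeR adjusted p = 0.00328), and when any of the other 11 mice was left out it stayed negative but was not called, with the adjusted p reaching 0.149. DESeq2 called 11 members, 3 higher and 8 lower, and 3.32% of the genes it adjusted. Without WTF 1091, edgeR called 15, against 5.15% of all genes.

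After Rpl23a, the most negative differences between the sexes were those of Rps19 (-1.18 ± 0.33 (SE), edgeR adjusted p = 0.117) and Rps15a (-1.08 ± 0.27 (SE), edgeR adjusted p = 0.093). Rps15a was at 176, 171 and 134 CPM in WTF and 88.2, 87.3 and 72.8 in KOF. A pseudogene row, Rps15a-ps6, stood at 33.9, 51.6 and 18.8 CPM in WTF and between 7.83 and 11.6 CPM in KOF. Both Rps15a and this copy were thus counted lower in each KOF mouse than in each WTF mouse. The pseudogene row of Rps19, Rps19-ps3, was at 2.17, 4.8 and 8.92 CPM in WTF and 5.41, 6.26 and 0 in KOF, which overlapped. Rpl5 (1.05 ± 0.30 (SE), edgeR adjusted p = 0.119), Rpl17 (1.02 ± 0.29 (SE), edgeR adjusted p = 0.125) and Rps6 (0.90 ± 0.36 (SE), edgeR adjusted p = 0.259) had the most positive differences between the sexes. Rps6, the substrate of S6 kinase, was at 62.1, 66.6 and 28.3 CPM in WTF and 90.6, 90.2 and 86.7 in KOF. Rpl5 was at 328, 349.9 and 522 CPM in WTF and 643, 657 and 559 in KOF, and its log2 fold change was 0.62 in females and -0.43 in males. Without WTF 1091, the interaction was called for Rps15a (-1.18, edgeR adjusted p = 0.0104) and Rpl5 (1.298, edgeR adjusted p = 0.00531).

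**Figure D4:**
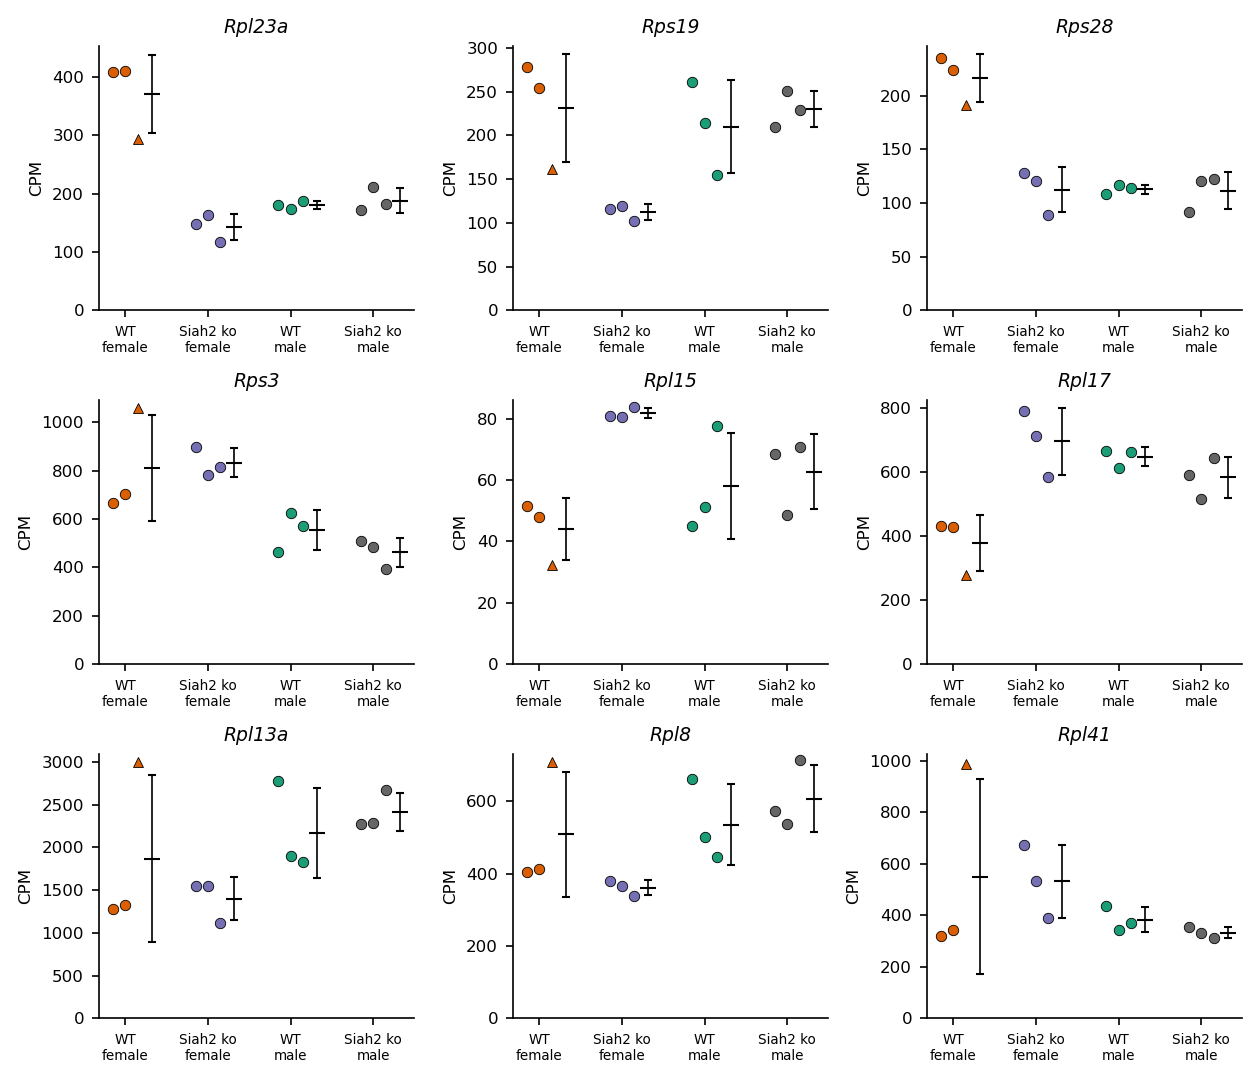
CPM of 9 members in each mouse, with the triangle marking WTF 1091 and bars giving the mean ± SD of 3 mice. Rpl23a and Rps28 are high in WTF only, Rps19 and Rpl8 are lowest in KOF, Rpl15 is highest in KOF, and for Rpl13a and Rpl41 WTF 1091 is far above WTF 1089 and 1090.

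The sex difference in wild type mice was taken from WTF and WTM, and it shares the WTF mice with the test of genotype in females. EdgeR called none of the 75 members, and 1.39% of 9335 genes (0.686% higher and 0.707% lower in WTF). An unadjusted p under 0.05 was found for 14 members and for 15.2% of all genes. The calls of DESeq2 covered 5 members and 3.74% of the genes it adjusted. WTF lay above WTM for 14 members and below for 8, against 11.5% and 11.2% of all genes. Rpl23a (1.06 ± 0.23 (SE), edgeR adjusted p = 0.0586), Rps28 (0.97 ± 0.22 (SE), edgeR adjusted p = 0.0644) and Rpl22 (0.93 ± 0.22 (SE), edgeR adjusted p = 0.0785) had the most positive values. Rps28, a small protein at the mRNA exit, was at 235, 224 and 191 CPM in WTF and 109, 117 and 114 in WTM. Rpl22 was at 232, 229 and 231 CPM in WTF and 129, 104 and 137 in WTM. In each of the 3 genes all WTF mice, WTF 1091 included, were above all WTM mice. Rpl14 (-1.12 ± 0.34 (SE), edgeR adjusted p = 0.164), Rps6 (-0.85) and Rpl17 (-0.74) had the most negative. Rpl14 was at 137, 144 and 196 CPM in WTF and 542, 229.7 and 297 in WTM, without overlap. Without WTF 1091, edgeR called 14 members, 7 higher and 7 lower in WTF, against 7.73% of all genes. Rpl23a was then at 1.18 (edgeR adjusted p = 0.00223), Rps28 at 1.02 (edgeR adjusted p = 0.00482) and Rpl14 at -1.33 (edgeR adjusted p = 0.0288).

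In Siah2 ko mice, members of both subunits were called between the sexes, in both directions. EdgeR called 15 of 75 members and 11.5% of 9102 genes. Of the members, 6 were higher and 9 lower in KOF than in KOM, and of all genes 5.69% and 5.78% were. An unadjusted p under 0.05 was found for 27 members and for 26.1% of all genes. The median log2 fold change was -0.02, with -0.002 over all genes. KOF lay above KOM for 10 members and below for 19, against 14.7% and 16.0% of all genes. DESeq2 called 17 members, 8 higher and 9 lower, and 9.91% of the genes it adjusted.

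Rps3 (chr7:99477896-99483709), which guides mRNA into the small subunit, was the member most strongly raised in KOF. It was at 898, 781 and 817 CPM in KOF and 509.7, 484 and 394 in KOM (0.85 ± 0.16 (SE), edgeR adjusted p = 0.00262). Rpl41, the smallest ribosomal protein, was at 674, 534 and 389 CPM in KOF and 354, 331 and 314 in KOM (0.69 ± 0.18 (SE), edgeR adjusted p = 0.0274). Rpl9, of the stalk base of the large subunit, was at 209.7, 229 and 203 CPM in KOF and 147, 169 and 109 in KOM (0.60 ± 0.17 (SE), edgeR adjusted p = 0.0358). In none of the 3 genes did the groups overlap. Rpl35, at the tunnel exit, was at 284, 272 and 232 CPM in KOF and 183, 173 and 185 in KOM (0.55 ± 0.15 (SE), edgeR adjusted p = 0.0258). Rpl5 was at 643, 657 and 559 CPM in KOF and 391, 503 and 381 in KOM (0.55 ± 0.16 (SE), edgeR adjusted p = 0.0386).

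Rps19 was the member most strongly lowered in KOF, at 116, 119 and 102 CPM in KOF and 209.6, 250.4 and 229 in KOM (-1.03 ± 0.15 (SE), edgeR adjusted p = 0.000493). Rps4y2, the pseudogene, was at 10.6, 15.1 and 25.9 CPM in KOF and 29.8, 29.1 and 35.2 in KOM (-0.94 ± 0.28 (SE), edgeR adjusted p = 0.0423). Rpl13a, the most abundant member, was at 1545, 1547 and 1113 CPM in KOF and 2278, 2288 and 2673 in KOM (-0.78 ± 0.17 (SE), edgeR adjusted p = 0.00882). The groups of these genes did not overlap either. Rpl14 was at 207, 246 and 167 CPM in KOF and 291, 283 and 475 in KOM (-0.75 ± 0.21 (SE), edgeR adjusted p = 0.0301), and Rpl8, a core protein of the large subunit, at 379, 367 and 338 CPM in KOF and 573, 536 and 713 in KOM (-0.74 ± 0.16 (SE), edgeR adjusted p = 0.00668). The other 4 were Rps7 (-0.66), Rpl24 (-0.65), Rps12 (-0.64) and Rps15 (-0.62). Called members came from both subunits, with 8 of 44 in the large and 7 of 31 in the small. Of the 16 genes of Diamond-Blackfan anaemia, 2 were higher (Rpl5 and Rpl35) and 2 lower (Rps7 and Rps19), against the 11.5% called among all genes.

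Only Rps19 and Rps3 were called whichever of the 6 mice was left out. The number of members called was 5 without KOF 1070, 6 without KOF 1104, 13 without KOF 1105, 7 without KOM 1075, 8 without KOM 1076 and 2 without KOM 1081. It was 2 when all 4 groups shared the estimate of the spread, where WTF 1091 entered it. KOF 1105, without which 13 were called, had the lowest sum of the family. The share of all genes called in these 6 fits was 5.9%, 5.97%, 11.2%, 7.88%, 7.5% and 5.14%, in the same order, and 3.59% in the fit of 4 groups.

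Markers of other cells also stood apart between KOF and KOM. Their sums did not overlap for macrophages (298 to 736 CPM in KOF and 90.9 to 188 in KOM, 7 genes), endothelial cells (204 to 219.7 and 156 to 181 CPM, 5 genes), lymphocytes (6.997 to 11.4 and 2.22 to 6.08 CPM, 8 genes, mostly Ptprc) and red blood cells (8.47 to 19.3 and 103 to 154 CPM, Alas2 alone, with 4 haemoglobin genes at 0). Between WTF and WTM, the sums of lymphocytes (13.5 to 14.8 and 2.79 to 6.88 CPM), endothelial cells (214.9 to 301 and 168 to 214.6 CPM), bile duct cells (9.87 to 45.1 and 47.4 to 56.3 CPM) and red blood cells (20.1 to 25.2 and 83.9 to 105 CPM) did not overlap. Those of macrophages did (377 to 521 and 70.6 to 534 CPM). The part of these cells in the levels of the members was not tested.

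**Figure D5:**
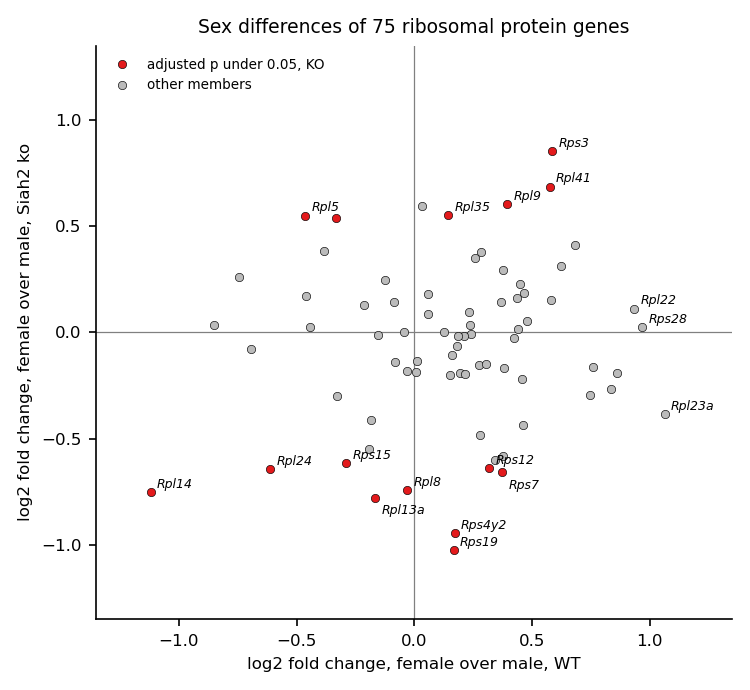
Log2 fold change of females over males for each of the 75 members, in wild type mice (horizontal) and in Siah2 ko mice (vertical). Red points are the 15 members called by edgeR in Siah2 ko mice. Rps3, Rpl41 and Rpl9 are positive in both genotypes, Rpl14 is negative in both, and Rps19 is near 0 in wild type mice and the lowest in Siah2 ko mice. For Rpl41, WTF 1089 and 1090 (321 and 342 CPM) lie below all WTM (344 to 437 CPM), and only WTF 1091 (988 CPM) lies above.

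The 2 sex differences share no mice. The same sign was seen for 36 of 75 members, and for 4990 of 8894 genes. Rps19, for example, was at 278, 254 and 161 CPM in WTF and 261, 214 and 155 in WTM, which overlapped, with a log2 fold change of 0.17 ± 0.28 (SE). For Rpl14 the value was -1.12 in wild type and -0.75 in Siah2 ko mice. The genotype effects in females and in males share no mice either, and 36 of 75 members and 3882 of 8659 genes had the same sign in both.

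Set against the other 9 mice, the 3 WTF mice were above all of them for 12 members and below for 5, whereas 3.66% and 3.57% of 9806 genes lay so. The 12 were Rpl7, Rpl22, Rpl23a, Rpl37, Rps7, Rps13, Rps15a, Rps21, Rps24, Rps26, Rps28 and Rps29. Of these, 8 encode proteins of the small subunit. The 5 lower included Rpl17, Rpl35a, Rps3a1 and Rps6. KOF lay below all other mice for 9 members (Rpl8, Rpl12, Rpl23a, Rpl37, Rps7, Rps10, Rps12, Rps19 and Rps29) and above for 2, Rpl15 among them, compared with 2.51% and 2.45% of all genes. WTM stood apart for no member (0.316% of all genes higher and 0.439% lower), and KOM was lower for Rpl37a alone (0.959%). These counts were made after the values had been seen and carry no test. Rpl23a, Rpl37, Rps7 and Rps29 were highest in WTF and lowest in KOF, with both groups of males between them. For Rpl37, of the large subunit, the levels were 459.5, 495 and 583 CPM in WTF, 279, 290.2 and 251 in KOF, 317, 308 and 313 in WTM and 357, 339.9 and 314 in KOM.

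The acidic stalk, which recruits translation factors to the large subunit, is made of Rplp0, Rplp1 and Rplp2. EdgeR called none of the 3 in any comparison. Rplp0 was at 268, 254 and 517 CPM in WTF and 271, 256 and 256 in KOF, where WTF 1091 alone was high. Rplp1 was at 1043, 1012 and 662 CPM in KOF and 1240.2, 1145 and 1243 in KOM, without overlap (-0.41 ± 0.18 (SE), edgeR adjusted p = 0.157). Rplp2 lay between 639 and 1397 CPM in all mice. Of the 5S RNA carriers, Rpl11 lay between 316 and 466 CPM, and its log2 fold changes were -0.26 by genotype in females and 0.16 by sex in Siah2 ko mice, neither called, whereas Rpl5 was called in the latter.

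The 4 members on X, Rps4x, Rpl10, Rpl39 and Rpl36a, were called in no comparison. Between wild type females and males their log2 fold changes were 0.26, -0.21, 0.01 and 0.23, and between Siah2 ko females and males 0.35, 0.13, -0.14 and 0.09. Rps4x was at 258, 233 and 213 CPM in KOF and 210.0, 187 and 159 in KOM, without overlap. Without WTF 1091 the wild type values of these 4 genes were all below 0, with a median of -0.33.

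Besides Rps4y2, 3 paralogs of ribosomal proteins were measured, and none was called. Rpl7l1 lay between 19.1 and 39.7 CPM in the 12 mice, beside 204 to 489 CPM for Rpl7. Rpl22l1 was at 96.7, 78.02 and 63.4 CPM in WTF and 71.2, 75.5 and 37.9 in KOF, while Rpl22 was at 232, 229 and 231 CPM in WTF and 154, 157 and 107 in KOF. Rpl22 did not overlap between these groups and Rpl22l1 did, and edgeR called neither (adjusted p = 0.174 and 0.602). Without WTF 1091, Rpl22 was called (-0.72, edgeR adjusted p = 0.044) and Rpl22l1 was not (-0.48, edgeR adjusted p = 0.276). Rps27l lay between 187 and 254 CPM in all mice, with log2 fold changes from -0.06 to 0.08 over the 6 comparisons, while Rps27 was near 0 in these tables.

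Other genes of the pathway were read beside the members, from lists chosen with earlier results known. Ribosomal proteins whose symbols fall outside the rule were tested too. Rpsa, of the small subunit, was at 347, 362 and 253 CPM in KOF and 454, 501 and 644 in KOM (-0.73 ± 0.18 (SE), edgeR adjusted p = 0.0182), and no other of the 5 measured was called in any comparison with all mice. Without WTF 1091, edgeR called 1 of the 5 higher in KOF than in WTF, and 1 with a positive value in the interaction. Of all genes, 9.64% and 5.15% were called in these 2 fits. Of 19 tested mRNAs of translation factors and other genes known for a TOP motif, edgeR called none by genotype in either sex. Without WTF 1091 it called 3 higher and 3 lower in females, against 9.64% of all genes. Between Siah2 ko females and males it called 3 of the 19, against 11.5% of all genes. Eef1b2 (0.55) and Eif4a2 (0.59) were higher in KOF and Pabpc1 (-0.56) was lower. Eif4a2, an RNA helicase of translation initiation, was at 386, 428 and 64.3 CPM in WTF and 1077, 1063 and 1130.5 in KOF (1.88 ± 0.55 (SE), edgeR adjusted p = 0.149).

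Ribosome biogenesis gave 1 call among 23 genes tested between Siah2 ko females and males, and by genotype in females none, or 2 higher and 2 lower without WTF 1091. Of all genes, 11.5% were called between Siah2 ko females and males, and 9.64% by genotype in females without WTF 1091. Gar1, a protein of the particles that modify ribosomal RNA, was at 38.4, 30.9 and 27.7 CPM in KOF and 14.3, 5.64 and 10.4 in KOM (1.68 ± 0.29 (SE), edgeR adjusted p = 0.00148). None of the genes of TOR and MYC control was called, among 13 to 15 tested in each comparison. Without WTF 1091, 2 of 15 were called in females, both lower, and 1 of 15 between WTF and WTM, against 9.64% and 7.73% of all genes. The ribosome of mitochondria, the most similar family, gave no call in 74 genes by genotype in females, and 2 higher and 1 lower without WTF 1091. It gave 6 of 73 between Siah2 ko females and males, all higher in KOF, against 5.69% of all genes called higher. Mrps14 was at 69.3, 65.5 and 65.01 CPM in KOF and 39.6, 31.7 and 39.7 in KOM (0.85 ± 0.17 (SE), edgeR adjusted p = 0.0059). In that comparison 50 of the 73 had log2 fold changes above 0, as did 35 of the 75 members described here and 4540 of all 9102 genes. The precursor of ribosomal RNA, Rn45s, held 5.69% to 17.9% of the reads of a library, and no comparison called it.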

How the data were processed

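Liver RNA of 12 mice was measured with QuantSeq 3′ mRNA libraries. The authors deposited counts of reads per gene, with no normalization, in a table for each sex. Per the paper, reads were trimmed, mapped and analysed on Illumina BaseSpace with DESeq2, and the submitters' processing notes name STAR, DESeq and mm10. No source at hand gives the annotation or the treatment of reads with several matches. The tables also hold 27 symbols turned into dates, which were kept in the totals.

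Groups came from the labels. Genes that passed the filter of filterByExpr were tested with the quasi-likelihood test of edgeR 4.0.16 (R 4.3.3) after TMM scaling, on the mice of each comparison alone, and on all 4 groups for the difference between the sexes. P-values were adjusted by Benjamini and Hochberg over all genes tested, and 0.05 was the threshold. DESeq2 1.42.0, limma 3.58.1 (voom) and other scalings, filters and left-out mice were alternatives. Levels are CPM over the filtered counts times the TMM factor. Log2 CPM, used for the spread, carry a prior count of 2. Members had at least 10 CPM.

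Named members were those called, the 3 highest and 3 lowest log2 fold changes of a comparison, the 5 highest and lowest levels, the 3 most and least variable, and small role lists, with 5 rises and 5 falls where over 10 were called. The members and lists were chosen with earlier results of these data known, and members named outside this rule were chosen after their values were seen. On simulated counts with log2 fold changes of 2 in 200 genes, edgeR recovered 94.0% of changed genes among 9311 in females. It recovered 95.0% among 9011 between Siah2 ko females and males, and 79% among 9675 for the interaction of genotype and sex. Of the calls, 7.39%, 8.21% and 7.6% were false, in the same order. Recovery of smaller log2 fold changes, such as those of the members, was not tested. In the real counts of females, edgeR called 0 of 9465 genes by genotype, while log2 fold changes ran from -3.20 to 2.91. Whether the simulated recovery holds at the spread between the real female mice was not tested. Some members that this rule names, and some other genes, are not reported here.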

Additional observations from a re-analysis of the deposited data

Results flagged for a closer look

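The genotype effect on Rpl23a differed between the sexes by -1.43 on the log2 scale (females minus males), with an edgeR adjusted p = 0.0474. The effect was -1.39 in females and 0.05 in males. This difference was tested by an interaction term. Over the fits that left out 1 of the 12 mice, the adjusted p ran from 0.00328 to 0.149 and was past the threshold only without WTF 1091, and the difference was negative in each.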

How the results depend on the processing

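No called value changed its direction under the alternatives tried, and the medians of 3 comparisons changed sign without WTF 1091. In females, the number of members called (0) was 12 with DESeq2 (3.7% of all genes), 6 with no filter beyond 1 count (2.82%), 15 with all 4 groups in one fit (4.35%), and 0 to 23 (9.64% at 23) when each mouse was left out in turn, while the median log2 fold change ran from -0.36 to 0.02. For the difference between the sexes (1 call), the number was 11 with DESeq2 (3.32%), 2 with no filter beyond 1 count (1.82%), 0 with column totals in place of TMM (0.0%), 0 with library sizes set to the summed members (0.0%) and 0 to 15 (5.15% at 15) with a mouse left out, and the median ran from -0.39 to 0.04. Between wild type females and males (0 calls), it was 5 with DESeq2 (3.74%), 3 with no filter beyond 1 count (3.17%), 9 with all 4 groups in one fit (5.15%) and 0 to 14 (7.73% at 14) with a mouse left out, and the median ran from -0.05 to 0.33. Between Siah2 ko females and males (15 calls), it was 2 with all 4 groups in one fit (3.59%) and 2 to 13 with a mouse left out. The highest counts in the first 3 comparisons came without WTF 1091, where the medians were 0.0196, 0.0408 and -0.0550. Scaled to column totals without Rn45s and with no TMM factor, the summed level of the family was 31011 CPM in WTM and 30574 CPM in KOM, and scaled to column totals with Rn45s it was 27684 and 27070.1 CPM. With the C of the TOP run required at the annotated start itself, whatever stood before it, 12 members had a match. The causes of these moves were not tested. The other 186 summary values moved by less than 1.5 times (counts) or by less than the spread between mice. Of the values of single members, 212 kept their side of the threshold, 18 passed it and 83 no longer did. No paired analysis was possible because the groups share no mouse numbers. Depth, at 1293688 reads in the smallest library, limited the members of lowest level, with as few as 25 reads in a mouse.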
